A study of Mus musculus with 30 samples.

Results

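The guanylate-binding proteins (Gbp) and the immunity-related GTPases (Irg) are enzymes that cells make in large amounts when interferon reaches them. The 10 genes described here are the Gbp genes Gbp2, Gbp3, Gbp5, Gbp6, Gbp7, Gbp9 and Gbp11 and the Irg genes Iigp1, Irgm1 and Igtp, out of 54532 features in the count files. They were taken by symbol from a list that was drawn up with the RAFi/MEKi responses of these libraries already known, so those responses, and the differences between clones made from them, are a description: where calls of the fit across all genes are counted for them, nothing is read from the count. Their levels were measured in 30 tumours of YUMM1.7, a mouse melanoma line with an activated Braf and without Cdkn2a, grown under the skin of C57BL/6 mice. The tumours came from 5 clones of that line, 2646TN, 2646R, 14559TN, 14559R and 13TN, which had been picked out by their CaTCH barcodes. For each clone there were untreated tumours and tumours under RAFi/MEKi, a combination of inhibitors of the RAF and MEK kinases, with 3 tumours in each of the 10 groups. What TN and R stand for is not given in the labels, so the letters serve as names only, and 13TN bears the word Depleted in its titles. Every group is thus a single clone, and the spread below is that between tumours of a clone. For p-values and SE it was estimated jointly over the 10 groups. Cells were dissociated with collagenase, stained for viability and for the leukocyte marker CD45, and recognised by strong GFP. The RNA was read as 3′ tags (Lexogen QuantSeq), with 3022801 to 5278453 counts in a library (median 4042893). Levels are in CPM, the share of a library's counts scaled to the same total in every library. Of the 10 genes 9 passed the filter on low counts, and Gbp6 did not.

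Interferons bind receptors that activate the kinases of the JAK family, which pass the signal to transcription factors. Type I interferon brings a complex that holds STAT2 and IRF9 to the interferon-stimulated response element (ISRE), and interferon gamma acts through the gamma-activated site (GAS). Gbp proteins then gather on the membranes of vacuoles that hold microbes and help to break them open, and they feed the inflammasomes that read microbial products in the cytosol. Among the Irg proteins Iigp1 is an effector that coats such vacuoles, while Irgm1 and Igtp sit on the cell's own membranes and hold the effectors inactive there. Tumour cells use the same interferon pathway, and the same genes report on it in tumours.

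In the GRCm38 coordinates of the count files, Gbp5 (chr3:142493978-142522344), Gbp7 (chr3:142530342-142550149), Gbp3 (chr3:142560026-142573209) and Gbp2 (chr3:142620602-142638008) lay in a cluster on the plus strand of chromosome 3. A second cluster on the minus strand of chromosome 5 held Gbp9 (chr5:105077630-105139539), Gbp6 (chr5:105270702-105293698) and Gbp11 (chr5:105323042-105346472). The Irg gene Irgm1 lay on the minus strand of chromosome 11 (chr11:48861968-48871683), Igtp on its plus strand (chr11:58199556-58207591). Reads come from the 3′ ends, and such ends can be alike within a family. Of the runs of 50 bases in the last 500 bases of its transcripts, Gbp6 shared 88.9% with Gbp10, Gbp4, Gbp9 or Gm43302, so a low Gbp6 count cannot be told from reads that could not be placed. Gbp11 shared 16.3% and the other 8 members 0 to 4.28%. Exons of Gbp6, Gbp7, Gbp9 and Igtp overlap another gene on the same strand, in no case within the last 500 exonic bases. GENCODE annotates Gbp11 as a polymorphic pseudogene and the other 9 members as protein-coding.

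Promoter sequence was held for Gbp5, Gbp7, Gbp3, Gbp2, Irgm1 and Igtp (RefSeq, GRCm38.p6). It is shown because these genes varied together over the tumours. Each line gives the 250 bases before the annotated RefSeq start, 5′ to 3′ on the gene's strand, and the capitals mark matches to an ISRE core (GAAA-NN-GAAA, or TTTC-NN-TTTC on the other strand, N being any base) or to a GAS core (TTCNNNGAA, which reads the same on both strands).
Gbp5, chr3:142496684-142496933, plus strand: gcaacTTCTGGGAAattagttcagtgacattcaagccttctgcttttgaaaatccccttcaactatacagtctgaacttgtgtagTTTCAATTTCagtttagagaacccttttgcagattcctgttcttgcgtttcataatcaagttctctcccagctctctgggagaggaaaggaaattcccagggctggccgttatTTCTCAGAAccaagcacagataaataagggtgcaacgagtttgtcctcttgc
Gbp7, chr3:142530086-142530335, plus strand: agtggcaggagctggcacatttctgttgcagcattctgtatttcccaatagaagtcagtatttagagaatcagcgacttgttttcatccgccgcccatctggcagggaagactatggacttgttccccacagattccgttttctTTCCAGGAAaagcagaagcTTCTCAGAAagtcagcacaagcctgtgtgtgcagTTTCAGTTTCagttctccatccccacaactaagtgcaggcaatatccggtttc
Gbp3, chr3:142559794-142560043, plus strand: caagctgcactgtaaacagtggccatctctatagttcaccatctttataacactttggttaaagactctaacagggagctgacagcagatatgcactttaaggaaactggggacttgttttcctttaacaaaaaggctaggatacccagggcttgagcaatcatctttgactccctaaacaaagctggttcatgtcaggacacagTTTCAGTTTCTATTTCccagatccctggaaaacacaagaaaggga
Gbp2, chr3:142620413-142620662, plus strand: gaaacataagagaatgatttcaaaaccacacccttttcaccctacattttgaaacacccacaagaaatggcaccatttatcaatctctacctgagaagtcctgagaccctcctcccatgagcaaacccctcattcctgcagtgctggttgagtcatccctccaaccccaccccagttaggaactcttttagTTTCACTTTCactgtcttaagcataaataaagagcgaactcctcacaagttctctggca
Irgm1, chr11:48871421-48871670, minus strand: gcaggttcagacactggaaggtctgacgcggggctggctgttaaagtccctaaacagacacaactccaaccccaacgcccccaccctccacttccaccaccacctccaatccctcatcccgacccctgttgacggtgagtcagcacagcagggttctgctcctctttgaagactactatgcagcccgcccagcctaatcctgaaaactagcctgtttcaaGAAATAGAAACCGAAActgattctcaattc
Igtp, chr11:58199306-58199555, plus strand: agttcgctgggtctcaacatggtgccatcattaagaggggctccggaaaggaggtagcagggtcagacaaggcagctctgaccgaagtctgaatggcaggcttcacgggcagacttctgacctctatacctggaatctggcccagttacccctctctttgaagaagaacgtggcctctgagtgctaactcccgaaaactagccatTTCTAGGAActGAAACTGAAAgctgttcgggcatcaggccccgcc
An ISRE core stood in all 6 windows. Including 50 bases after the start, 3.44% of 32851 promoters in the same table held an ISRE core, 8.30% a GAS core and 0.454% both. Gbp5, Gbp7 and Igtp held both cores. Counted back from the start, the ISRE match of Gbp5 ran from position -165 to -156, and the matches of the other 5 genes lay between positions -59 and -15. In Gbp3 and in Irgm1 a pair of ISRE matches overlapped. A second annotated start of Gbp3 had no match to either core in its window. These are matches of letters, and no binding was measured.

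Iigp1, the effector among the 3 Irg members, which lies on chromosome 18, was highest in the treated tumours of the TN clones. In 2646TN it stood at 701, 625 and 493 CPM in the untreated tumours and at 1417, 1364 and 1316 CPM in the treated ones. In 14559TN the values were 89.6, 135 and 262 CPM untreated and 1131, 1188 and 1114 CPM treated. In 13TN they were 610.1, 367 and 1092 CPM untreated and 2768, 3486 and 1705 CPM treated. Every treated tumour of these clones lay above every untreated tumour of its own clone. In 2646R the untreated tumours gave 24.9, 134 and 178 CPM and the treated ones 71.0, 49.2 and 119.7 CPM, and in 14559R they gave 205, 264 and 205 CPM against 268, 580.2 and 80.8 CPM. Here treated and untreated tumours overlapped.

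In the treated tumours the mean level of Igtp followed the same order of clones as that of Iigp1, and in the untreated ones it was highest in 2646TN, where Iigp1 was highest in 13TN. Untreated 2646TN tumours held 183, 192 and 195 CPM of it and treated ones 388, 359.7 and 542 CPM. Untreated 14559TN tumours held 21.3, 32.6 and 44.9 CPM and treated ones 304, 242 and 289 CPM. The treated 14559TN tumours all lay far above the untreated ones. Untreated 13TN tumours held 109, 54.3 and 176 CPM and treated ones 521, 622 and 266 CPM, again without overlap. The R clones overlapped, with 14.9, 45.5 and 66.4 CPM untreated and 20.6, 21.3 and 38.2 CPM treated in 2646R, and 43.1, 50.9 and 59.9 CPM against 42.6, 98.2 and 16.2 CPM in 14559R.

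Irgm1, the other regulator, split the clones in the same way. In 2646TN it went from 30.7, 29.9 and 24.5 CPM to 56.5, 55.5 and 48.5 CPM, and in 14559TN from 5.08, 4.61 and 6.30 CPM to 41.5, 47.0 and 42.0 CPM. In 13TN it went from 16.3, 6.20 and 28.3 CPM to 74.2, 107.5 and 35.0 CPM. The groups of these clones did not overlap. Untreated 2646R tumours had 0, 5.21 and 9.29 CPM and treated ones 4.34, 5.39 and 7.84 CPM, and 14559R tumours had 9.47, 12.95 and 19.1 CPM untreated and 14.3, 17.8 and 4.29 CPM treated. The value of 0 belonged to untreated 2646R replicate 1, which had the lowest level of the 3 untreated 2646R tumours in 8 of the 9 tested members, Gbp11 being the exception.

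Among the Gbp genes of chromosome 3, Gbp7, which in mouse macrophages takes part in assembling the NADPH oxidase, separated the groups clearly. It went from 157, 143 and 121 CPM to 325, 333 and 343 CPM in 2646TN, and from 32.7, 46.1 and 63.3 CPM to 310.1, 312 and 372 CPM in 14559TN. It went from 91.1, 55.8 and 121 CPM to 494, 492 and 234 CPM in 13TN. The highest untreated tumour in each of these clones lay well under the lowest treated one. In 2646R it was 25.5, 48.1 and 66.4 CPM untreated and 44.9, 35.6 and 60.7 CPM treated, and in 14559R it was 47.9, 40.9 and 52.8 CPM against 69.8, 80.6 and 27.0 CPM.

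Gbp3 stood at 8.12, 10.8 and 18.2 CPM in untreated and at 142, 146 and 158 CPM in treated 14559TN tumours. In 2646TN it was 58.2, 52.1 and 34.6 CPM untreated and 116, 129.8 and 103.5 CPM treated, and in 13TN 19.2, 19.1 and 43.4 CPM against 198, 221 and 79.6 CPM. None of these clones' groups overlapped. The R clones overlapped, at 7.07, 13.7 and 24.0 CPM untreated against 9.77, 4.69 and 12.4 CPM treated in 2646R, and 13.5, 19.0 and 14.9 CPM against 29.7, 33.2 and 9.60 CPM in 14559R.

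Gbp2 and Gbp5 carry a C-terminal motif to which a lipid (prenyl) group is added, which anchors them to membranes. Gbp2 had means of 184 ± 23.6, 66.8 ± 38.8, 82.2 ± 52.0, 78.8 ± 3.53 and 173 ± 140.3 CPM (SD, n = 3) in untreated 2646TN, 2646R, 14559TN, 14559R and 13TN tumours. In the treated tumours, in the same order, they were 401 ± 81.0, 48.3 ± 15.7, 431 ± 21.3, 95.7 ± 71.9 and 527 ± 245.5 CPM. Its 13TN groups overlapped, because untreated replicate 3 had 332 CPM and treated replicate 3 had 251 CPM. Gbp5 had untreated means of 27.3 ± 8.10, 7.73 ± 8.09, 11.7 ± 7.49, 7.87 ± 1.22 and 17.1 ± 7.29 CPM in that order. Its treated means were 56.4 ± 4.01, 6.07 ± 1.36, 105.5 ± 8.81, 17.7 ± 8.31 and 139.6 ± 72.9 CPM.

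On chromosome 5, Gbp9 had untreated means of 54.9 ± 10.3, 16.1 ± 10.6, 27.1 ± 11.3, 22.9 ± 6.13 and 18.8 ± 8.88 CPM in the same order of clones and treated means of 139 ± 20.6, 19.9 ± 6.85, 206 ± 21.1, 30.9 ± 16.1 and 176 ± 88.8 CPM. It was the only one of the 9 tested members whose mean was lower in untreated 13TN than in untreated 14559TN. Gbp11 rested on few counts. It passed the filter on low counts through tumours of the TN clones, where it was high under RAFi/MEKi. Its calls below, and the ends of ranges that it sets, are therefore a description only. Treated 13TN tumours held 59.3, 59.7 and 16.1 CPM of it, and the untreated ones 0.974, 0.496 and 0.923 CPM. In 14559TN it went from 0.254, 0 and 1.26 CPM to 8.80, 14.2 and 14.3 CPM, and in 2646TN from 8.06, 1.87 and 3.37 CPM to 19.2, 13.96 and 7.57 CPM. The 2646TN groups overlapped. In the R clones no tumour exceeded 1.47 CPM, and a library without a count allows up to 0.568 to 0.992 CPM (3 counts). Gbp6 had 4 counts in all 30 libraries together, in 4 different libraries, which were all treated tumours of TN clones.

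**Figure D1:**
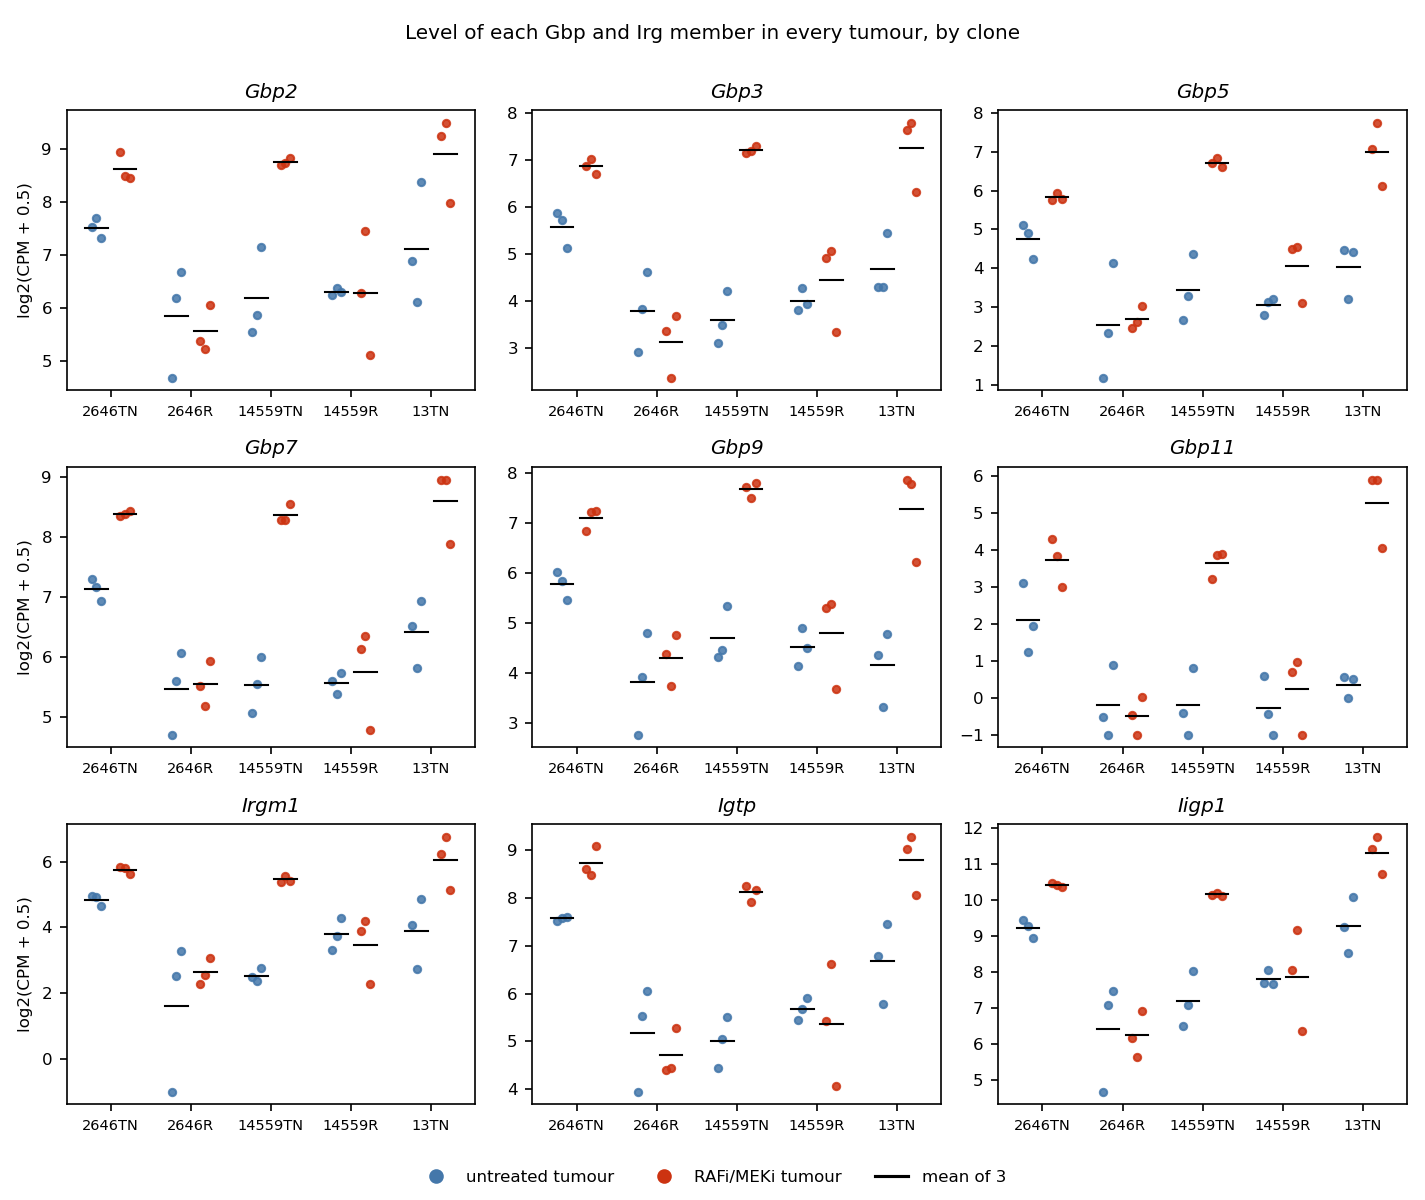
Level of the 9 tested members in each of the 30 tumours, as log2(CPM + 0.5), by clone and treatment (blue, untreated; red, RAFi/MEKi; black bar, mean of 3 on that scale). The means of treated 2646TN, 14559TN and 13TN are the highest in every panel, and the treated and untreated tumours of 2646R and 14559R overlap in every panel.

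Ranked by mean level, treated 13TN tumours came first for 8 of the 9 tested members, and treated 14559TN came first for Gbp9. The same 3 groups, treated 13TN, 2646TN and 14559TN, held the first 3 places for all 9. Untreated 2646TN held place 4 or 5 for every member. Last place went to treated 2646R for 6 members and to untreated 2646R for 3. Neighbours in these orders were seldom apart: of the 9 pairs of neighbouring groups, 6 to 8 overlapped, depending on the member.

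The response to RAFi/MEKi is the log2 fold change of treated over untreated tumours of a clone, from a fit of all 10 groups, and a gene was called at an edgeR adjusted p under 0.05 over 13286 genes. In 14559TN all 9 tested members were called higher, where 28.4% of all genes were called in either direction and 12.4% higher. Their log2 fold changes ran from 2.39 ± 0.60 (SE) for Gbp2 to 4.47 ± 0.82 for Gbp11, with a median of 3.02. In 13TN all 9 were called higher as well, where 31.0% of all genes were called and 13.6% were higher, from 1.62 ± 0.58 for Gbp2 to 5.78 ± 0.74 for Gbp11 (median 2.19). The call of Gbp2 was lost without untreated 13TN replicate 1 (1.44) or 2 (1.27) or treated replicate 1 (1.55) or 2 (1.35), and that of Iigp1 without untreated replicate 1 (1.91) or 2 (1.68) or treated replicate 2 (1.73). With only the 13TN groups in the fit, Gbp2 (1.64) and Irgm1 (2.14) were not called. These counts and sizes belong to the contrasts from which the list was drawn, and nothing is read from them beyond a description.

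In 2646TN all 9 log2 fold changes were above 0, from 0.91 ± 0.54 for Irgm1 to 1.58 ± 0.59 for Gbp11 (median 1.18), but edgeR called 0, where 3.94% of all genes were called. There 6 of the 9 had an unadjusted p under 0.05. DESeq2 called 1 (Gbp7), where it called 756 of all genes and the main edgeR fit 523. On the 2646TN groups alone edgeR called 8, and with all genes kept whatever their counts it called 9. For those groups alone and for all genes kept, the share of all genes called was not counted, so nothing is read from these counts. In 8 of 9 members every treated 2646TN tumour lay above every untreated one, an order that 10.1% of all genes showed; the exception was Gbp11. The corresponding counts were 9 of 9 in 14559TN (22.9% of all genes) and 8 of 9 in 13TN (21.8%), with Gbp2 as the exception.

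In 2646R the members ranged from -0.91 ± 1.47 for Gbp11 to 0.36 ± 0.74 for Irgm1, with a median of -0.46 and 3 of 9 above 0. Their median became 0.41 without untreated replicate 3. In 14559R they ranged from -0.18 ± 0.60 for Irgm1 to 1.17 ± 0.59 for Gbp5 (median 0.44), with 8 of 9 above 0. The treated 14559R tumours were not alike. The summed members stood at 564.6 and 1050 CPM in treated replicates 1 and 2 and at 192.7 CPM in replicate 3, against 419.3, 507.7 and 460.3 CPM untreated. Leaving out any single 14559R library still left 0 members called. In both clones edgeR and DESeq2 called 0 members, 0 had an unadjusted p under 0.05, and in 0 members did all treated tumours lie above all untreated ones. Of all genes, 19.9% were called in 2646R and 0.196% in 14559R, and 17.1% and 7.41% had the treated tumours on top.

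**Figure D2:**
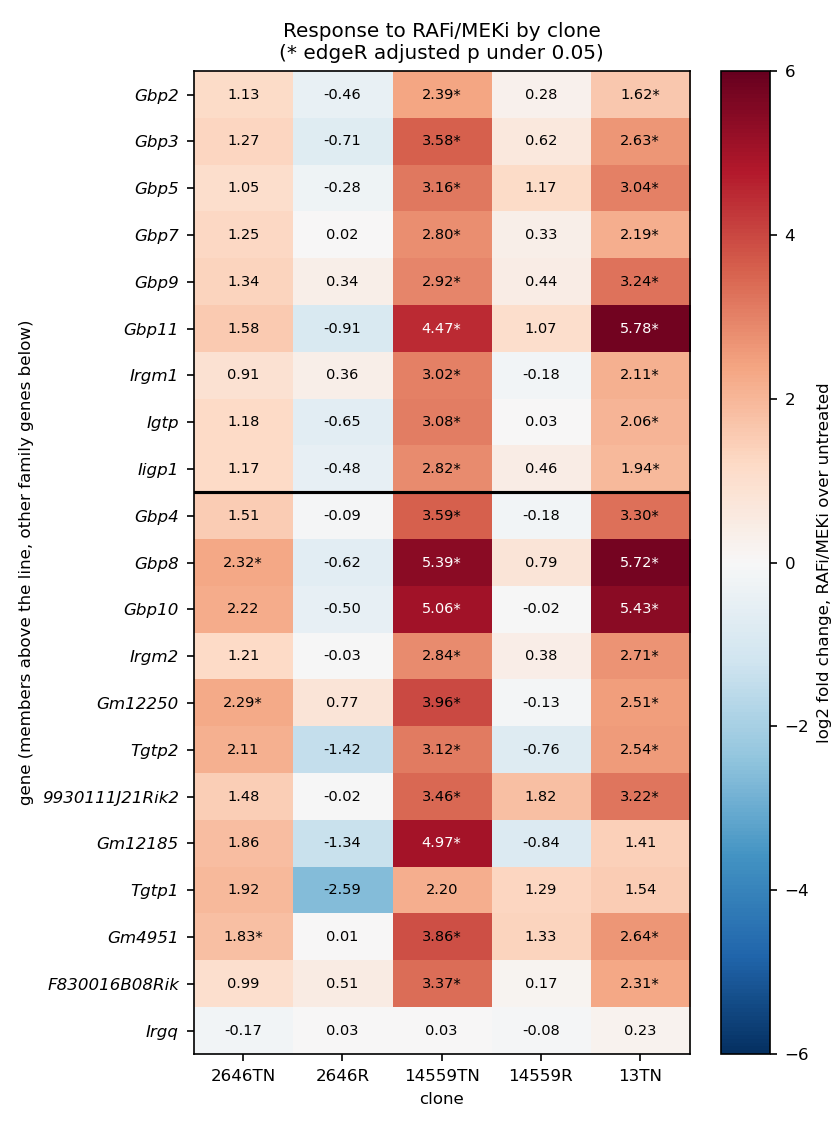
Log2 fold change of treated over untreated tumours (colour and number) of the 9 tested members and of the 12 tested genes among the 16 others listed from both families, by clone; an asterisk marks an edgeR adjusted p under 0.05. The 14559TN and 13TN columns are red for every gene but Irgq, the 2646TN column is paler, and the R columns hold no asterisk.

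The untreated tumours were compared between clones. Of the 9 members 8 differed over the 5 untreated groups by edgeR, where 56.6% of all genes did, and Gbp2 did not (adjusted p = 0.0843). Without untreated 2646TN replicate 1 the count was 5, with Gbp5 (adjusted p = 0.1125), Gbp9 (0.104) and Gbp11 (0.115) no longer called. Between 2646R and 2646TN, 8 of 9 members were lower in 2646R, where 36.6% of all genes were called and 18.4% were lower. The log2 differences were -1.60 ± 0.38 for Gbp7 (edgeR adjusted p = 0.00220), -2.19 ± 0.54 for Igtp (0.00312), -2.64 ± 0.65 for Irgm1 (0.00308) and -2.44 ± 0.63 for Iigp1 (0.00448). The others called were Gbp3 (-1.72 ± 0.48), Gbp9 (-1.81 ± 0.52), Gbp5 (-1.89 ± 0.58) and Gbp11 (-3.18 ± 0.90). Gbp2 was at -1.47 and was not called. It was called by DESeq2 (-1.48) and by edgeR without untreated 2646R replicate 3 (-1.92). The count fell to 5 without untreated 2646R replicate 1, the library with the lowest member levels, when Gbp3 (-1.36), Gbp5 (-1.37) and Gbp9 (-1.39) were no longer called. That library had the highest total of all (5278453 counts) and yet the fewest genes detected (14669, where the most was 17234). Whether its quality bears on its member levels was not tested. Gbp5 also lost its call without untreated 2646TN replicate 1 (-1.70) or untreated 2646R replicate 2 (-1.64), and Gbp11 without untreated 2646TN replicate 1 (-2.46). Macrophage markers summed to 248 to 398 CPM in these 2646TN tumours and to 45.2 to 89.1 CPM in the 2646R tumours, and their part in the difference was not tested.

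Untreated 2646TN was also above untreated 14559TN, with 6 of 9 members called higher where 18.9% of all genes were called and 10.1% were higher. Igtp led by 2.53 ± 0.55 (edgeR adjusted p = 0.00232), followed in p by Gbp7 at 1.56 ± 0.38 (0.00521), Gbp3 at 1.95 ± 0.49 (0.00697) and Irgm1 at 2.40 ± 0.64 (0.0107). Gbp11 (3.00 ± 0.91) and Iigp1 (1.90 ± 0.61) made up the 6. Without untreated 14559TN replicate 1 the count was 3. Iigp1 lost its call without any single library of the 6 except untreated 14559TN replicate 3, and Gbp11 lost its call without untreated 2646TN replicate 1 or untreated 14559TN replicate 1 or 2. Against untreated 13TN, 2646TN had 2 members called higher, Gbp9 and Gbp11, where 16.2% of all genes were called and 8.63% were higher, and 14559TN had 2 called lower, Igtp and Iigp1, where 11.2% were called and 5.55% were lower. These last calls hung on single libraries. Leaving out any of the 6 libraries left 0 or 1 call in the comparison with 2646TN, and leaving out any of the 6 but untreated 13TN replicate 2 left 0 or 1 in that with 14559TN. Untreated 14559R against 14559TN had 0 members called by edgeR or DESeq2 and 0 with an unadjusted p under 0.05, where 24.1% of all genes were called. The differences ran from -0.58 to 1.36, the highest being that of Irgm1, with a median of -0.01. Untreated 2646R against 14559R also had 0 called by both tools, and 1 with an unadjusted p under 0.05 (20.5% of all genes called). Without untreated 2646R replicate 3, 1 was called.

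Under RAFi/MEKi both R clones stood below the TN clone of the same number. All 9 members were lower in treated 2646R than in treated 2646TN, where 20.1% of all genes were called and 10.1% were lower. The differences ran from -2.81 ± 0.50 for Gbp9 (edgeR adjusted p = 4.26e-04) to -5.67 ± 0.91 for Gbp11 (5.71e-05), with a median of -3.22. Gbp11 rested on 141 counts against 3, a ratio of 58.2 (95% interval 19.9 to 282, counting error only). As it passed the filter through the TN clones, its call here is a description only. Iigp1 differed by -4.10 ± 0.67 and Igtp by -4.01 ± 0.58. The 9 calls held without any single library of the 6.

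In the other pair all 9 members were lower in treated 14559R than in treated 14559TN, where 49.4% of all genes were called and 22.7% were lower. The differences ran from -1.83 ± 0.57 for Irgm1 (edgeR adjusted p = 0.0110) to -3.78 ± 0.74 for Gbp11 (1.41e-04), with a median of -2.48. Gbp7 differed by -2.48 ± 0.38 and Gbp3 by -2.61 ± 0.45. Without treated 14559R replicate 3, the calls of Iigp1 (-1.43) and Irgm1 (-1.44) were lost. Treated 2646TN against treated 14559TN had 0 members called by edgeR or DESeq2 and 0 with an unadjusted p under 0.05, where 37.5% of all genes were called. Treated 14559TN against treated 13TN had 1 member called, Gbp11, lower at -1.85 ± 0.53 where 15.8% of all genes were called and 7.78% were lower. That call was absent with DESeq2 (-1.85) and without treated 14559TN replicate 1 (-1.66) or treated 13TN replicate 1 (-1.61) or 2 (-1.60).

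The responses were also set against each other between clones. These differences are made of the responses that were known when the list was drawn up, so their calls are no independent test of the members and are counted as a description. Over the 5 clones edgeR called 8 of 9 members, all but Gbp2, where it called 28.8% of all genes. The call of Iigp1 was lost on leaving out 22 of the 30 libraries in turn and that of Irgm1 on leaving out 15. The response of 14559R was below that of 14559TN in all 9 members and called in 5, where 12.0% of all genes were called and 4.08% were lower. Those were Irgm1 (-3.20 ± 0.88), Igtp (-3.05 ± 0.76), Gbp3 (-2.96 ± 0.69), Gbp9 (-2.49 ± 0.70) and Gbp7 (-2.47 ± 0.53). The other 4 lay between -1.99 ± 0.80 for Gbp5 and -3.40 ± 1.73 for Gbp11. Gbp9 lost its call without untreated 14559TN replicate 1 (-2.31) or 2 (-2.36), untreated 14559R replicate 2 (-2.29) or treated 14559R replicate 3 (-2.11), and Irgm1 without untreated 14559R replicate 3 (-2.94).

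The response of 2646R was below that of 2646TN in all 9 members too, from -0.56 ± 0.92 for Irgm1 to -2.50 ± 1.64 for Gbp11, but edgeR and DESeq2 called 0, and 3 had an unadjusted p under 0.05 (4.15% of all genes called). Irgm1 turned to 0.35 without untreated 2646R replicate 3. The response of 2646TN was below that of 14559TN in all 9 members and called in 2, Gbp3 (-2.31 ± 0.64) and Gbp7 (-1.55 ± 0.51), where 14.1% of all genes were called and 5.19% were lower. Gbp7 lost its call without any single library except untreated 14559TN replicate 3, and Gbp3 lost its call without untreated 14559TN replicate 1 (-2.10). Between 14559TN and 13TN edgeR and DESeq2 called 0 members, with 0 at an unadjusted p under 0.05, where 0.444% of all genes were called. The treated comparisons and the differences between responses use the same treated tumours as the responses above and are not separate evidence of them.

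**Figure D3:**
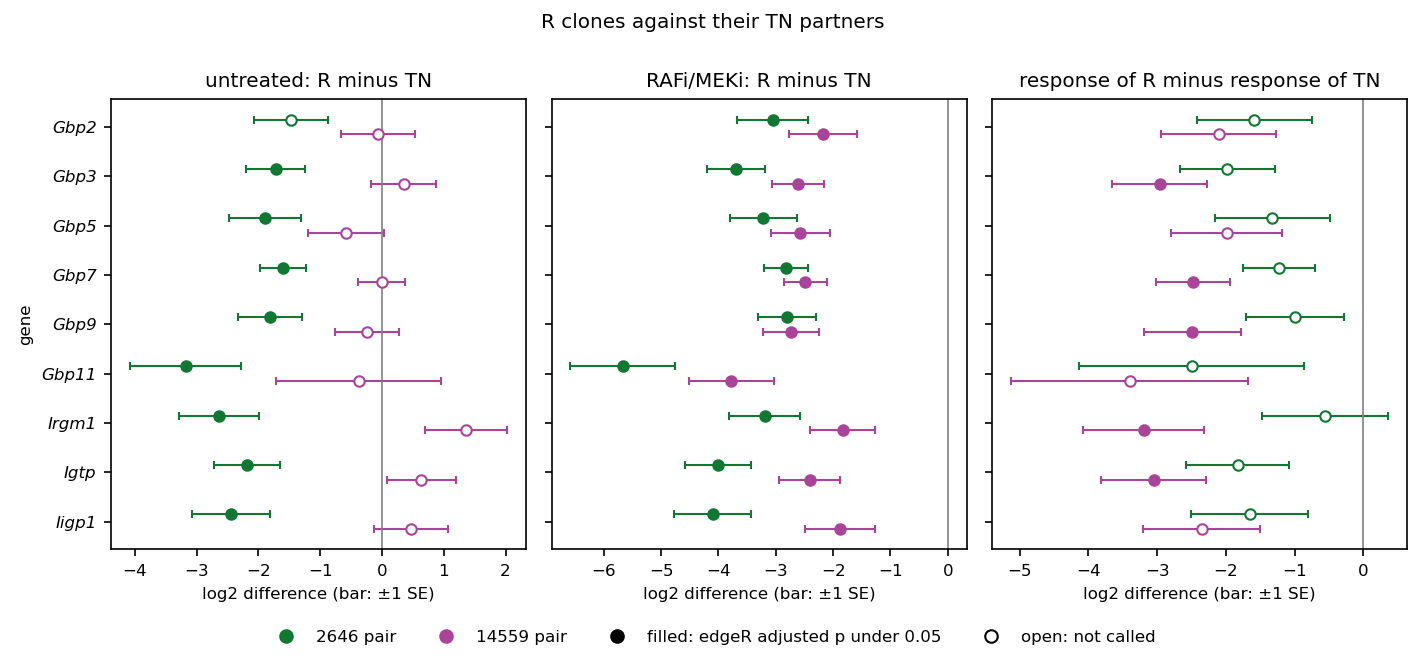
Log2 difference (± 1 SE) of the R clone minus the TN clone of the same number in untreated tumours (left), in treated tumours (middle) and in their responses (right), for each tested member; filled points have an edgeR adjusted p under 0.05. The 2646R and 2646TN clones are apart already in untreated tumours, and both pairs are apart under RAFi/MEKi. Untreated 14559R minus 14559TN runs from -0.58 to 1.36, with no filled point.

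The members moved together from tumour to tumour. Over the 10 group means, Pearson's r between members was 0.853 to 0.988 (median 0.950, 36 pairs), and over the deviations of the 30 libraries from their group means it was 0.439 to 0.938 (median 0.859). These values describe points that share libraries and depth, and the group means also share the treatment. In 14 of the 30 libraries all 9 members lay on the same side of the group mean. The widest groups were treated 14559R, where replicates 1 and 2 had all 9 members above and replicate 3 all 9 below (median -1.17), and untreated 2646R, where replicate 1 lay below (median -1.17) and replicate 3 above (0.97). In treated 13TN, replicate 3 lay below in all 9 (median -0.89), and in untreated 13TN replicate 2 lay below (-0.83) and replicate 3 above (0.77). The treated groups of 2646TN and 14559TN were tight, with medians between -0.06 and 0.08.

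**Figure D4:**
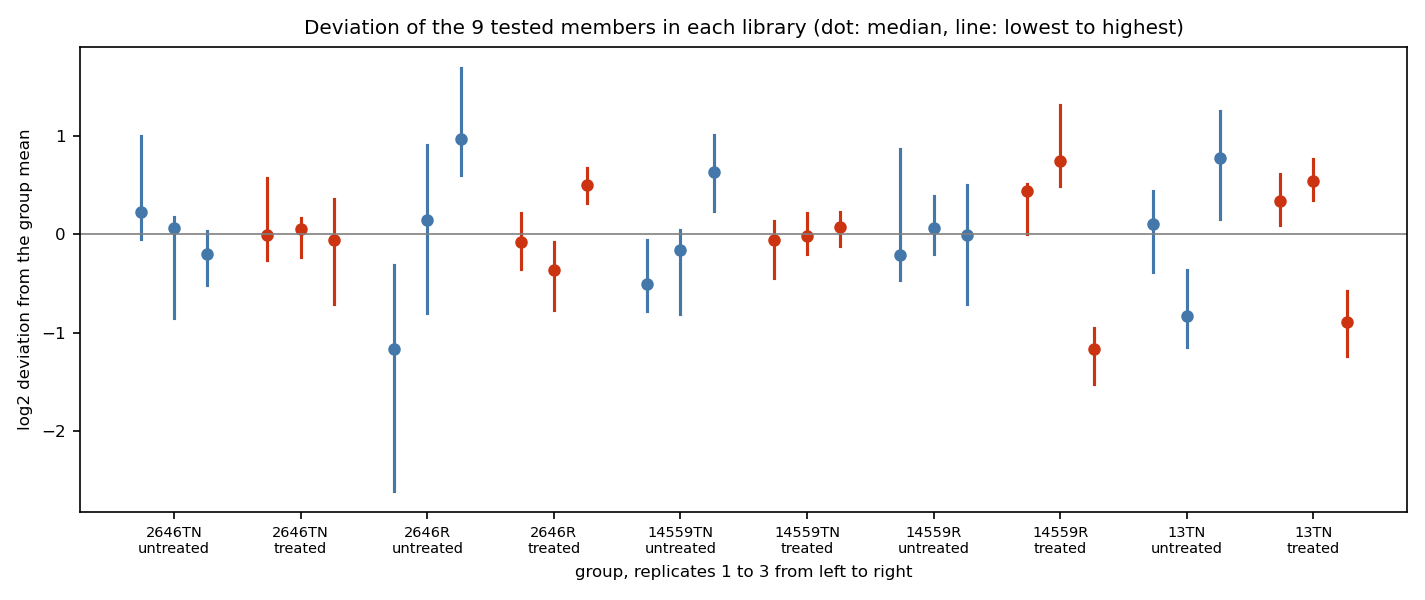
Deviation of the 9 tested members from their group mean (log2) in each library, replicates 1 to 3 from left to right within a group; the dot is the median and the line runs from the lowest to the highest member (blue, untreated; red, RAFi/MEKi). Treated 14559R replicate 3 and treated 13TN replicate 3 lie wholly below 0, and the libraries of treated 2646TN and treated 14559TN lie close to 0.

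A list of 16 other genes of both families, which does not hold every one of them, was counted in the same way, and 12 of the 16 passed the filter. In 14559TN 10 of the 12 rose (12.4% of all genes were called higher) and in 13TN 9 rose (13.6%), with median log2 fold changes of 3.53 and 2.59. Gbp8 went from 0.915 ± 0.572 to 39.0 ± 3.23 CPM in 14559TN and from 1.35 ± 0.742 to 71.3 ± 43.7 CPM in 13TN. Irgm2, the third regulator beside Irgm1 and Igtp, went from 4.95 ± 1.83 to 35.96 ± 7.34 CPM in 14559TN and from 13.1 ± 7.40 to 84.5 ± 35.1 CPM in 13TN. Gm4951 rose in both (3.86 and 2.64 on the log2 scale), as did Gm12250 (3.96 and 2.51), Gbp4 (3.59 and 3.30), Gbp10 (5.06 and 5.43), Tgtp2 (3.12 and 2.54), F830016B08Rik (3.37 and 2.31) and 9930111J21Rik2 (3.46 and 3.22). Gm12185 rose in 14559TN (4.97) and was at 1.41 in 13TN. Some of these fold changes start from almost no counts. Untreated 14559TN tumours together held 1 count of Gbp10, 5 of Tgtp2 and 1 of Gm12185, and untreated 13TN tumours 1 of Gbp10. Gbp10, Tgtp2 and Gm12185 passed the filter on low counts through the groups where they were high. Their calls and the size of their fold changes are therefore a description only. The 3′ ends of Gbp10, Tgtp1, Tgtp2 and 9930111J21Rik2 were shared with relatives over at least 66.0% of their runs of 50 bases, so these genes cannot be kept apart from them. In 2646TN Gbp8, Gm12250 and Gm4951 were called higher (3.94% of all genes called), and 0 of the 12 were without untreated 2646TN replicate 1 or 3. There 11 of the 12 had an unadjusted edgeR p under 0.05. In 2646R and in 14559R edgeR and DESeq2 called 0 of the 12, with 0 and 2 at an unadjusted p under 0.05. There edgeR called 19.9% and 0.196% of all genes. Irgq, a family member chosen for mention after its values were seen, ranged from 21.2 to 42.1 CPM over the 30 libraries.

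Interferon transcripts themselves were almost absent. The 10 interferon ligand genes listed had 4 counts in all libraries together, 3 of them Ifng counts in untreated 2646TN tumours. Of 16 receptor and signalling genes 9 rose and 1 fell in 14559TN, where 28.4% of all genes were called, and 8 rose in 13TN (31.0%). In 2646TN 2 rose (3.94%), with 0 or 1 called without any single 2646TN library except treated replicate 2, and 6 of the 16 had an unadjusted p under 0.05. In 2646R Ifngr1 rose (19.9%), a call lost without untreated replicate 1 or 2 or treated replicate 2. In 14559R edgeR and DESeq2 called 0 (0.196%), and 2 had an unadjusted p under 0.05. Irf9, the DNA-binding partner of STAT2, rose by 2.12 on the log2 scale in 14559TN and by 1.44 in 13TN, and Usp18, which removes the ubiquitin-like protein ISG15, by 3.64 and 1.50. Stat2 rose by 2.34 in 14559TN and was called higher in 13TN too. The gene that fell in 14559TN was Ifngr2, a chain of the interferon gamma receptor, by 0.79, named because it was the only one of its list called lower there.

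Of 34 genes of the type I interferon response 33 rose in 14559TN (median 2.95) and 30 in 13TN (median 2.04), where 28.4% and 31.0% of all genes were called. In 2646TN 13 rose (median 1.22, with 3.94% of all genes called), and 3 or 4 were called without any single 2646TN library except treated replicate 2. There 28 of the 34 had an unadjusted edgeR p under 0.05. In 2646R 2 rose (median 0.29; 19.9% called), with 0 called without untreated replicate 1, 1 without treated replicate 1 or 3 and 4 without untreated replicate 3. In 14559R (median 0.88; 0.196% called) edgeR called 0 and DESeq2 2, 12 had an unadjusted p under 0.05, and edgeR called 4 without treated replicate 3. By the rule for named genes these included Oas2, which makes the activator of RNase L, at 5.39 and 3.46 in 14559TN and 13TN, Oasl1 at 4.42 and 1.44, Irf7, a factor that drives interferon genes, at 3.99 and 2.89, and the antiviral GTPase gene Mx2 at 3.04 and 2.27. In the R clones edgeR called none of them, but the estimates were not all small. In 14559R Oas2 was at 3.12, Oasl1 at 2.26, Irf7 at 1.83 and Mx2 at 2.48, and in 2646R they were at 2.58, 1.26, 0.27 and 1.10. Of 23 tested genes of the interferon gamma response other than GTPases 13 rose in 14559TN (median 1.81) and 16 in 13TN (median 1.52). Of the same 23 genes 2 rose in 2646TN, with 1 called without untreated replicate 1 or 2 or treated replicate 1 or 3, and 7 had an unadjusted p under 0.05. In 2646R 2 rose and 1 fell, with 1 called without treated replicate 3, and in 14559R edgeR and DESeq2 called 0, with 0 at an unadjusted p under 0.05. The chemokine genes Cxcl9 and Cxcl10 rose by 3.39 and 2.81 in 14559TN and by 3.24 and 2.22 in 13TN, and Batf2 by 2.96 and 2.04. The median of all tested genes lay between -0.00246 and 0.0121 in the 5 responses. The lists were written with earlier results of these data known, and their direction is not independent of them.

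Genes whose products work on or beside the GTPases were less uniform. Of 17 tested partners in autophagy-based loading, ubiquitin marking and inflammasomes 5 rose and 1 fell in 14559TN (median 0.21), where 28.4% of all genes were called, and 7 rose in 13TN (median 0.20; 31.0%). In 2646R the autophagy genes Atg12 (-0.95), Atg3 (-0.68) and Atg16l1 (-0.47) fell and Gsdmd, which encodes a pore-forming protein, rose (0.59), where 19.9% of all genes were called, and 2 of the 17 were called without untreated replicate 1. In 2646TN Gabarapl1 fell by 0.55 (3.94% of all genes called), a call lost without untreated replicate 3 or treated replicate 1. In 14559R edgeR and DESeq2 called 0 (0.196% of all genes called by edgeR), with 3 at an unadjusted p under 0.05. These 5 genes, like Ifngr1 above, are named after their values were seen. Those with the largest mean response were Ubd, a ubiquitin-like modifier (4.28 and 2.09 in 14559TN and 13TN), the ubiquitin ligase genes Rnf213 (2.18 and 1.83) and Trim21 (2.69 and 1.79), and Casp1, the inflammasome protease (1.11 and 1.40). The gene that fell in 14559TN was Gabarap, one of the autophagy proteins that load these GTPases onto membranes, by 0.31. Like Ifngr2 above, it is named because it was the only one of its list to fall in 14559TN. The 6 enzymes and carriers of prenylation had log2 fold changes between -0.53 and 0.12 in 14559TN and between -0.62 and 0.72 in 13TN. Arhgdia, a carrier of prenylated proteins, was called lower in both, and with median-of-ratios scaling 2 of the 6 were called in 13TN. In 2646R 2 of the 6 were called higher, and 1 was without any single 2646R library except untreated replicate 2. The 2 were Fnta, named by the rule for named genes, and Fntb, named after its values were seen.

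The sort was for GFP-bearing cells, and markers of other cells were counted because macrophages also make these GTPases. Ptprc, which encodes CD45, was at 0 to 6.80 CPM, 14 lymphocyte markers together were at 0 to 3.03 CPM, with Cd3g, Ncr1, Cd79a and Ms4a1 at 0 in every library, and 8 dendritic cell markers at 0.489 to 8.99 CPM. Neutrophil markers summed to at most 10.6 CPM and 9 endothelial markers to 24.4 to 375 CPM. Much of the endothelial sum was Flt1, with a mean of 122.7 CPM in untreated and 60.05 CPM in treated tumours. It was called lower in 2646TN (-1.54, 3.94% of all genes called), 2646R (-2.14, 19.9%) and 13TN (-1.31, 31.0%). Of the macrophage markers the rule for named genes gave Cd68, called lower in 2646TN (-1.965). The pigment genes Tyr, Tyrp1 and Dct, which define differentiated melanocytes, had no count, so these markers did not show the labelled melanoma origin, while the 7 pigment cell markers together stood at 13.6 to 91.6 CPM. That sum was mostly Mitf, with 23.1 of 23.85 CPM in untreated 2646TN and 60.7 of 60.97 CPM in untreated 13TN. In untreated 14559R Sox10 added 19.54 CPM to 32.26 CPM of Mitf. The 15 macrophage markers together were at 33.6 to 398 CPM, highest in untreated 2646TN tumours (384, 248 and 398 CPM). In that clone they went down to 85.8, 52.3 and 131 CPM under RAFi/MEKi, with 7 of 13 tested markers called lower, where 3.94% of all genes were called (2 without untreated replicate 1 or 3 or treated replicate 2, and 4 without treated replicate 1 or 3), while the members' log2 fold changes were all above 0. In 2646R they went from 58.5, 45.2 and 89.1 CPM to 158, 163 and 166.5 CPM, with 3 of the 13 called higher, where 19.9% of all genes were called (1 without untreated replicate 1 or 2, and 8 without untreated replicate 3). Thus of 2646TN and 2646R the clone with more macrophage transcripts had the higher members untreated and the lower members treated. In 14559TN the markers went from 35.0, 63.9 and 114 CPM to 163, 94.4 and 90.5 CPM. There 2 of the 13 were called higher and 1 lower, where 28.4% of all genes were called. In 14559R they went from 77.3, 59.9 and 76.7 CPM to 84.1, 87.9 and 115 CPM, with 0 called by edgeR or DESeq2 (0.196%). Untreated 13TN tumours had 109, 67.7 and 65.8 CPM, and 1 of the 13 was called lower under RAFi/MEKi (31.0%). In treated 13TN the markers stood at 70.4, 33.6 and 104.5 CPM and the summed members at 5092, 6146 and 2730 CPM, so the library with the most macrophage transcripts had the lowest member level. In untreated 14559TN the order of the tumours was the same for both, with 35.0, 63.9 and 114 CPM of markers beside 229, 318 and 598 CPM of members. The dendritic cell markers went from 1.78, 0.615 and 2.02 CPM to 5.96, 5.43 and 5.43 CPM in 14559TN. In 2646TN they went from 6.30, 7.17 and 8.99 CPM to 1.13, 2.27 and 2.52 CPM. Of the 2 tested, Zbtb46 was called higher in 14559TN (28.4% of all genes called) and 13TN (31.0%), and Itgax lower in 2646TN (3.94%). The part of macrophages and dendritic cells in the member levels was not tested, and in such bulk samples fewer cells of a type and less RNA per cell cannot be told apart.

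**Figure D5:**
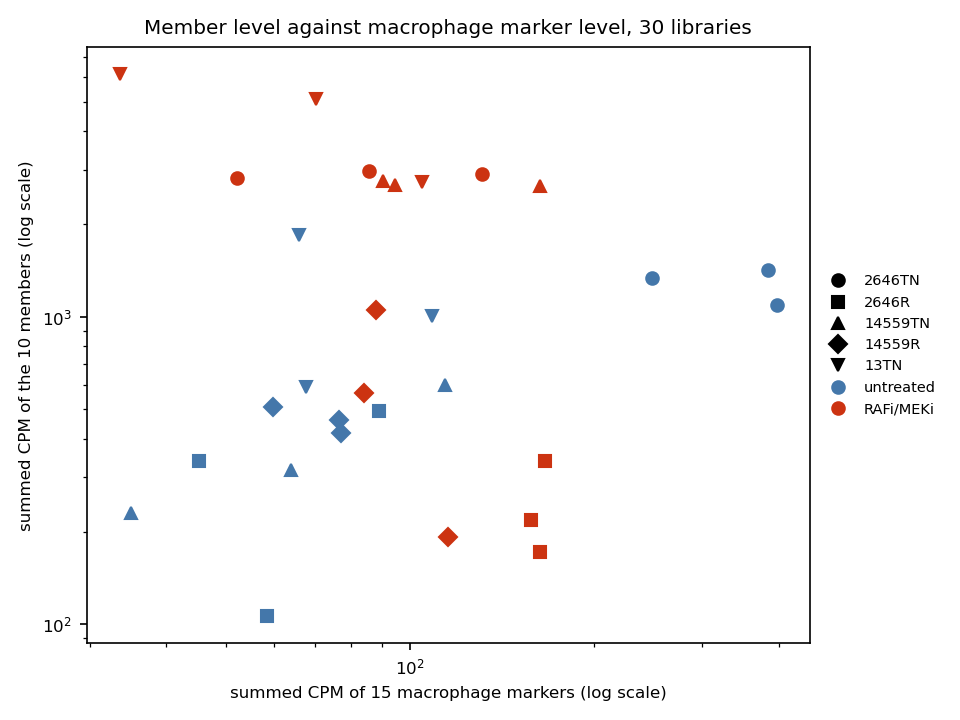
Summed CPM of the 10 members (vertical) against summed CPM of the 15 macrophage markers (horizontal) in each of the 30 libraries, both axes logarithmic; shape gives the clone and colour the treatment. Untreated 2646TN tumours stand alone at 248 to 398 CPM of markers, and the highest member sum, 6146 CPM, belongs to the library with the lowest marker sum, 33.6 CPM.

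The genes most like the members were ranked by Pearson's r of their 10 group means with the members' average, among 11787 genes. Among the 10 highest were Trim25 (0.991), Ifih1 (0.990), Gm12250 (0.986), Ifi44 (0.985), Rtp4 (0.985), Xaf1 (0.983), 9930111J21Rik2 (0.982), Ifi47 (0.980) and Tnfsf10 (0.977). Trim25 and Ifih1 belong to the sensing of viral RNA, Ifi47 encodes another GTPase of the Irg family that was not among the 16 listed, and Tnfsf10 encodes the death ligand TRAIL. The group means of Trim25 spanned 1.80 on the log2 scale and those of Gm12250 spanned 5.36, so likeness here is of order and shape and not of size. These correlations describe 10 groups that share treatment and libraries.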

How the data were processed

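The deposited files held raw counts per gene, made by the authors with STAR 2.6.0c and, per the file headers, featureCounts 1.6.2 (paired and stranded mode, GRCm38) without reads that map to several places or to overlapping genes. Totals were 3022801 to 5278453 counts a library. Features were matched to members and lists by symbol. Groups came from clone and treatment labels, and each tumour has its own code, so the tumours of a group were its replicates. The p-values rest on the spread between tumours within groups, estimated jointly over the 10 groups, and not on that of 1 clone alone. Counts were filtered by group, scaled by TMM (0.926 to 1.08) and fitted with 10 group means in edgeR 4.0.16 under R 4.3.3 (quasi-likelihood test, 20 residual degrees of freedom, 13286 genes, Benjamini-Hochberg over all of them, threshold 0.05). The fit was tested on simulated data. Alternatives were DESeq2 1.42.0, median-of-ratios scaling, no low-count filter, only the groups compared, and each library left out. The members and lists were chosen with earlier results of these data known. All members are named, other family genes if called in a response, from each list at most 4 called genes with the largest mean response and at least 5 CPM, and the 10 genes most like the members (mean log2 CPM, prior count 2). Intervals and limits for zero counts (3 counts) cover counting error only. 1 named gene is not reported here.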

Additional observations from a re-analysis of the deposited data

Results flagged for a closer look

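The responses to RAFi/MEKi were set against each other between clones in the fit across all genes. It called a difference in 8 of the 9 tested members, where 28.8% of all genes were called. The members were chosen with these responses known, so the p-values below are those of the fit and no independent test of the members. Over the 5 clones the edgeR adjusted p was 0.00063 for Gbp3, 0.00125 for Gbp7, 0.00353 for Gbp11, 0.00487 for Igtp, 0.00571 for Gbp9, 0.00998 for Gbp5, 0.0362 for Irgm1 and 0.0399 for Iigp1. The last 2 were lost on leaving out 15 of the 30 libraries in turn for Irgm1 and 22 for Iigp1. The response of 14559R minus that of 14559TN was -3.197 for Irgm1, -3.048 for Igtp, -2.961 for Gbp3, -2.485 for Gbp9 and -2.475 for Gbp7 on the log2 scale, and the calls of Irgm1 and Gbp9 were each lost without at least 1 library. Of all genes 12.0% were called for that difference and 4.08% were lower. The response of 2646TN minus that of 14559TN was -2.307 for Gbp3 and -1.552 for Gbp7, where 14.1% of all genes were called and 5.19% were lower. The call of Gbp7 was lost without any single library of the 4 groups except untreated 14559TN replicate 3, and that of Gbp3 without untreated 14559TN replicate 1. Groups of 3 tumours are too small for a test of single outlying tumours.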

How the results depend on the processing

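No paired analysis was possible because the replicate numbers only name tumours that each carry their own code. Without the low-count filter, edgeR called 9 members in the 2646TN response, 3 in 2646R and 1 in 14559R. For untreated tumours it called 3 in 14559R against 14559TN, 7 in 2646TN against 13TN, 6 in 14559TN against 13TN and 2 in 2646R against 14559R, and for treated tumours 4 in 14559TN against 13TN and 3 in 2646TN against 14559TN. For differences of response it called 7 between 2646R and 2646TN, 9 between 14559R and 14559TN, 9 between 2646TN and 14559TN and 2 between 14559TN and 13TN. The share of all genes called was not counted without the filter, nor in fits of single clones, so nothing is read from the counts there. DESeq2 called 1 member in the 2646TN response and 0 in treated 14559TN against 13TN, and a fit of the 2646TN groups alone called 8, while one of the 13TN groups alone left Gbp2 and Irgm1 uncalled in the 13TN response. DESeq2 added Gbp2 in untreated 2646R against 2646TN. For differences of response it called 6 members between 14559R and 14559TN, where it called 1848 genes and the main edgeR fit 1596. Between 2646TN and 14559TN it called 3, where it called 2117 genes and the main edgeR fit 1867. Leaving out 1 library gave 5 to 9 calls in untreated 2646R against 2646TN, 3 to 6 in 2646TN against 14559TN, 0 to 1 in 2646TN against 13TN, 0 to 2 in 14559TN against 13TN and 0 to 1 in 2646R against 14559R. It gave 0 to 1 in treated 14559TN against 13TN and 5 to 9 over the 5 untreated groups. For the response difference of 2646TN and 14559TN it gave 0 to 4, and for that of 14559R and 14559TN 4 to 7. The median response in 2646R became 0.41 without untreated 2646R replicate 3. The Irgm1 response difference between 2646R and 2646TN ran from -1.20 (without untreated 2646R replicate 1) to 0.35 (without untreated 2646R replicate 3). For these changes the cause was not tested. Median-of-ratios scaling moved no member's call, and of the counts over lists 645 stayed within 1.5 times and 75 did not when 1 library was left out. Gbp11 is limited by depth, and for Gbp6 low counts cannot be told from reads that could not be placed.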
